A study of Mus musculus with 2 samples.

Results

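The 10 genes described here carry out MHC class I antigen presentation, and they were chosen by function from the 34097 genes that the count files list. They are the heavy chain genes H2-K1 and H2-D1, B2m for the light chain, the peptide transporter genes Tap1 and Tap2, Tapbp for tapasin, the immunoproteasome subunit genes Psmb8 and Psmb9, Psme1 for a subunit of the proteasome activator PA28, and Nlrc5, which encodes a transactivator of the pathway. All 10 were found by symbol in both libraries, and all 10 passed the filter of 100 UMIs in 1 library in each of the cell classes used below.

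Class I molecules show short peptides from inside the cell to CD8 T cells. The proteasome cuts proteins into peptides, the transporter made of TAP1 and TAP2 moves them into the endoplasmic reticulum, and tapasin helps load them onto a heavy chain paired with beta-2-microglobulin. Interferons raise the transcription of these genes, partly through NLRC5 and the IRF factors, and tumour cells with little class I on their surface are poorly seen by CD8 T cells.

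Single-cell RNA was counted as unique molecular identifiers (UMIs) on the 10x Genomics platform in 2 mouse tumours, each a xenograft of LLC, the Lewis lung carcinoma line. The control tumour carried no named agent, and the knockdown tumour carried a short hairpin RNA (shRNA) against Gfpt2, an enzyme of the hexosamine pathway. The series asks what this knockdown does to the tumour's immune microenvironment. Each group was 1 library, and the labels used here name no number of animals, hairpin sequence, control vector, host strain, age or time, so nothing below has a replicate error and no test was run.

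Cells were placed in classes by their UMIs. Macrophages had at least 10 C1qa, C1qb and C1qc UMIs per 10000 (3990 control and 4556 knockdown cells), T cells had at least 2 Cd3d, Cd3e and Cd3g UMIs (786 and 676), and tumour-like cells had no UMI of the leukocyte gene Ptprc, fewer than 5 Lyz2 UMIs per 10000 and at least 5000 UMIs (4986 and 5211). The classes could overlap: 121 control and 130 knockdown cells were in both the macrophage and the T cell class. The median cell was deeper in the control library in each class, with 5379.5 against 3953.5 UMIs in macrophages, 2784 against 2688.5 in T cells and 18744 against 14667 in tumour-like cells. Of 5 carcinoma markers looked for in tumour-like cells, Hmga2 stood at 220 and 218 CPM (UMIs of a gene per 1e6 UMIs of its class and library), Krt7 at 1.10 and 0.992 CPM, and Krt8, Krt18 and Epcam at or near 0, while the matrix genes Dcn and Col3a1 were above 1000 CPM and Lum below 1, so the name rests on the gate and not on epithelial markers. Gfpt2, the target, was at 2.05 CPM (1.78 to 2.34) in control and 0.650 CPM (0.492 to 0.842) in knockdown tumour-like cells. The libraries shared 28 cell barcodes among kept cells.

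The gene neighbourhoods and proximal promoters of the members are shown first, because several members lie side by side or share promoter letters. In RefSeq's order of protein-coding genes, Psmb9, Tap1, Psmb8 and Tap2 follow each other on chromosome 17, which also holds H2-K1, H2-D1 and Tapbp. B2m is on chromosome 2, Psme1 on chromosome 14 and Nlrc5 on chromosome 8. Sequences come from RefSeq's GRCm38.p6 promoter windows, which held 8 of the 10 members. The build behind the counts is not given in the sources used here, so no count was joined to a coordinate. Printed 5′ to 3′ on the gene's strand, the 180 bases next to the first H2-K1 start site (minus strand) and 180 bases from 181 bases before the B2m start site (plus strand) carry the searched motifs in capitals:
H2-K1 chr17:34000348-34000527: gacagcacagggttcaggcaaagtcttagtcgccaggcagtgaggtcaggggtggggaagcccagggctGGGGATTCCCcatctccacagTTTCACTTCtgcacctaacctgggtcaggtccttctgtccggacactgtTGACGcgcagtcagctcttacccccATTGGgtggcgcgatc
B2m chr2:122147506-122147685: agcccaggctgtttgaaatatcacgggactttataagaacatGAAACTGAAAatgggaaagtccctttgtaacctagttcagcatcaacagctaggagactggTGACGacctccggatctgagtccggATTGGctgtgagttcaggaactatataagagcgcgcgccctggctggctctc

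Both heavy chain genes hold an NF-kB site followed by a shortened interferon response element on the other strand (searched as GAANNGAAA). These 30-base stretches, from 111 bases before the H2-K1 start site and 171 bases before the H2-D1 start site, differ by 1 substitution, A18T, counted from 1 at the 5′ end of the stretch, with the H2-K1 base first. The H2-D1 window overlaps exons annotated to H2-D1 in GENCODE, so no more of it is shown:
H2-K1 chr17:34000429-34000458, minus strand: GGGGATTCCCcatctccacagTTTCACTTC
H2-D1 chr17:35262923-35262952, plus strand: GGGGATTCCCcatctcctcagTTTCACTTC
Tap1 and Psmb9 are transcribed away from each other from start sites 225 bases apart, and their shared upstream stretch is shown for the cyclic AMP response element core TGACG (in capitals), 1 occurrence of which serves both windows:
Tap1 and Psmb9 chr17:34187458-34187486, plus strand: cccagagacaggTGACGacagagggtcct

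Every motif was searched on both strands of 32851 promoter windows. The full interferon-stimulated response element was in the windows of B2m and Psme1 and in 3.44% of all windows. The shortened form, which can overlap it, was in the windows of H2-K1, H2-D1 and Psme1 and in 7.52% of all windows. The gamma-activated site TTCNNNGAA was in that of Psmb8 and in 8.3% of all, and the NF-kB site in those of H2-K1 and H2-D1 and in 1.75% of all. TGACG, a part of the SXY promoter module through which NLRC5 acts, was in the windows of H2-K1, H2-D1, B2m, Tap1 and Psmb9 and in 20.8% of all. A CCAAT box was in 6 of the 8 members' windows and in 37.4% of all. These are matches of letters only.

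Levels are CPM of summed UMIs with exact Poisson intervals at 95%, which cover counting error only, and a ratio of knockdown to control is given with the range that its pair of intervals allows. In tumour-like cells 9 of the 10 genes had a higher level in the knockdown library, with a median log2 ratio of 0.18 and a range from -0.00 for Psmb8 to 0.28 for Tap1. Of all 12372 genes tested there, 62.9% were higher in the knockdown library, and their median was 0.04. B2m, Tap1 and Psmb9 were at least 1.2-fold higher in the knockdown library and no member was 1.2-fold lower, where 11.4% of all genes tested were at least that much higher and 2.81% that much lower. Among genes with at least 1000 UMIs over both libraries, as all members have in this class, 625 of 9635 were that much higher and 138 that much lower. None of the 3 reached 1.2-fold after scaling by TMM (trimmed mean of M-values), which lowers each ratio in this class by 0.07, or with every cell weighted equally. None reached it in the 612 control and 1254 knockdown cells of 5000 to 10000 UMIs either, where the members' median was -0.03. RNA of other cells moved with the group in this class too: the 6 macrophage markers summed to 397 and 496 CPM, nearly all of it Apoe (385 and 483 CPM), the 3 C1q genes to 120 and 140 CPM, the 3 Cd3 genes to 2.49 and 3.87 CPM, and the 2 haemoglobin genes to 5.31 and 18.5 CPM, with none of these genes at 0. In the 283 control and 390 knockdown cells without a UMI of Lyz2, C1q or Cd3 the members' median was 0.12 and none reached 1.2-fold. Shallow cells pass that filter more easily, and the part of depth in this value was not tested.

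**Figure D1:**
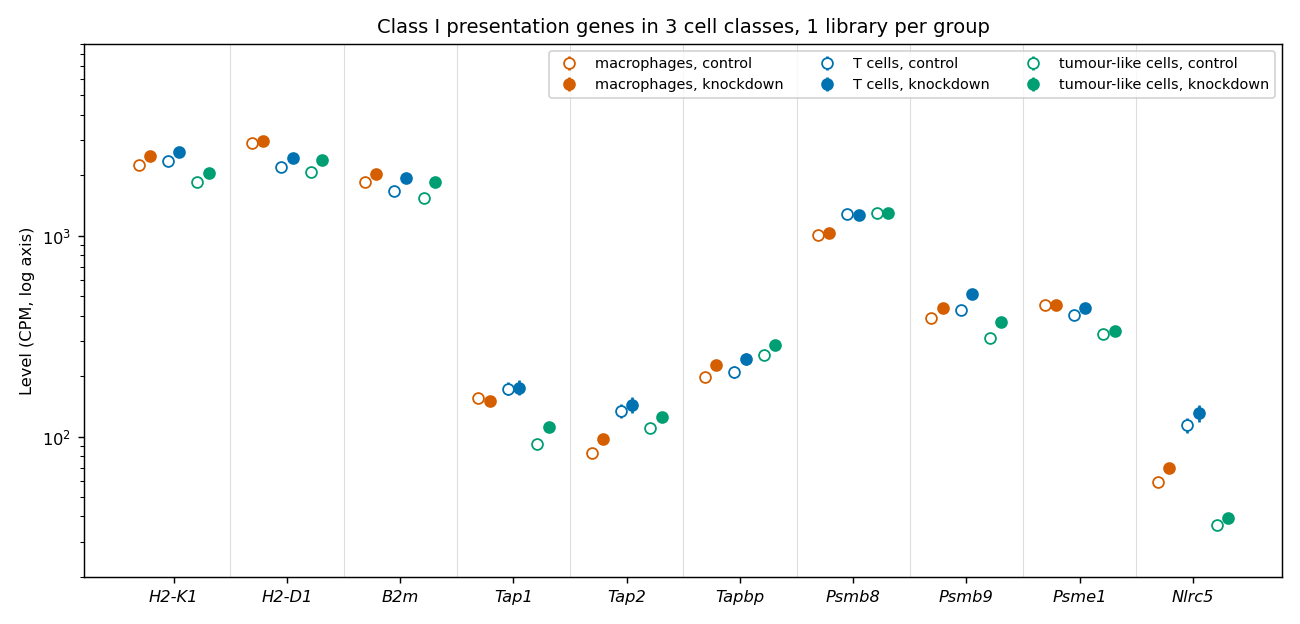
Level of each of the 10 genes in CPM on a log axis, for macrophages, T cells and tumour-like cells. Open points are the control library, filled points the knockdown library, and bars are exact 95% Poisson intervals, mostly smaller than the points. Nlrc5 is lowest in tumour-like cells (36.1 and 39.1 CPM) and highest in T cells (113.6 and 130.2 CPM) in both libraries.

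The heavy chains come first among the members. In tumour-like cells the H2-K1 level was 1845 CPM for the control library, against 2053 CPM after knockdown. H2-D1 stood at 2085 and 2372 CPM. The knockdown library was the higher for both, by log2 ratios of 0.15 (0.14 to 0.17) and 0.19 (0.17 to 0.20). H2-K1 and H2-D1 are close relatives of each other and of the H2-Q and H2-T genes: 5.46% of all 90-base stretches of the longest GENCODE H2-D1 transcript and 0.131% of those of H2-K1 also occur in another gene, but none in the last 500 bases. Whether the authors' reads fell there is not given in the sources used here.

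B2m, whose product pairs with every classical heavy chain, was at 1548 CPM (1541 to 1556) in control and 1859.6 CPM (1851 to 1869) in knockdown tumour-like cells. Its log2 ratio of 0.26 (0.25 to 0.28) was larger than that of either heavy chain, and the ranges do not overlap.

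The transporter genes had far fewer UMIs. Tap1 stood at 92.0 CPM (90.2 to 93.9) from 9535 UMIs in control and 112 CPM (109 to 114) from 9787 UMIs in knockdown tumour-like cells, a log2 ratio of 0.28 (0.22 to 0.34). Tap2 stood at 110 and 125 CPM, a log2 ratio of 0.18 (0.13 to 0.24). Tapbp, the loading factor, stood at 255 and 287 CPM, a log2 ratio of 0.17 (0.13 to 0.20). All 3 were higher in the knockdown library.

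Among the genes for peptide cutting, the subunits did not move alike. Psmb9 was at 308 CPM (304 to 311) in control and 372 CPM (368 to 376) in knockdown tumour-like cells, a log2 ratio of 0.27 (0.24 to 0.30). Psmb8 was at 1292 and 1289.8 CPM, a log2 ratio of -0.00 (-0.02 to 0.01), so the levels lay within counting error of each other. Psme1 was at 323 and 334 CPM, a log2 ratio of 0.05 (0.01 to 0.08) that turns below 0 under TMM. In its last 500 bases, 5.11% of the 90-base stretches of Psme1 also occur in Gm7776. Nlrc5, the regulator, was at 36.1 and 39.1 CPM, a log2 ratio of 0.12 (0.02 to 0.21).

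**Figure D2:**
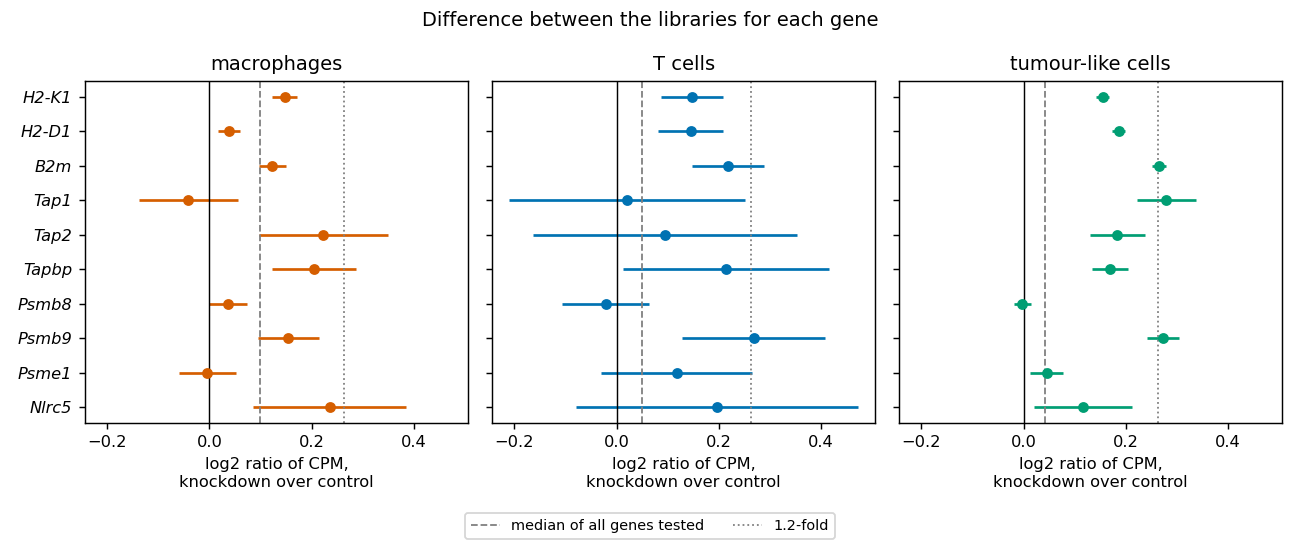
Log2 ratio of CPM, knockdown over control, for each gene in the 3 classes, with the range that the pair of 95% Poisson intervals allows. The dashed line is the median of all genes tested in the class (0.10, 0.05 and 0.04) and the dotted line is 1.2-fold. Psmb8 lies near 0 in every class, and the ranges are widest in T cells, which have the fewest UMIs.

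The level of most members depended on the depth of the cell, and the control cells were deeper. In control tumour-like cells H2-K1 was at 2586 CPM in cells of 5000 to 10000 UMIs, 2276 CPM in cells of 10000 to 20000 and 1580.4 CPM in deeper cells. Nlrc5 was at 59.8, 40.7 and 32.1 CPM in the same bins, and Tap1, Tap2, Tapbp, H2-D1 and B2m were likewise lower in each deeper bin. Psmb8, Psmb9 and Psme1 did not follow that order.

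Within the bins, the ratio between the libraries differed from gene to gene. B2m was higher in the knockdown library in all 3, with log2 ratios of 0.13 (0.09 to 0.18), 0.13 (0.10 to 0.15) and 0.26 (0.24 to 0.28) from the shallowest to the deepest. Psmb9 was also higher in all 3, with 0.22 (0.10 to 0.34), 0.18 (0.13 to 0.23) and 0.32 (0.28 to 0.37). For H2-K1 the ratios were -0.03 (-0.07 to 0.02), 0.00 (-0.02 to 0.02) and 0.14 (0.12 to 0.16). For Tap1 they were -0.03 (-0.22 to 0.16), 0.18 (0.09 to 0.28) and 0.29 (0.21 to 0.37). The members' median was -0.03, 0.04 and 0.16, beside 0.03, 0.01 and 0.02 for all genes tested in each bin, so only the bin of at least 20000 UMIs (2219 control and 1461 knockdown cells) held most of the difference. The part of depth in these ratios was not tested. These bins were chosen after seeing the data.

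**Figure D3:**
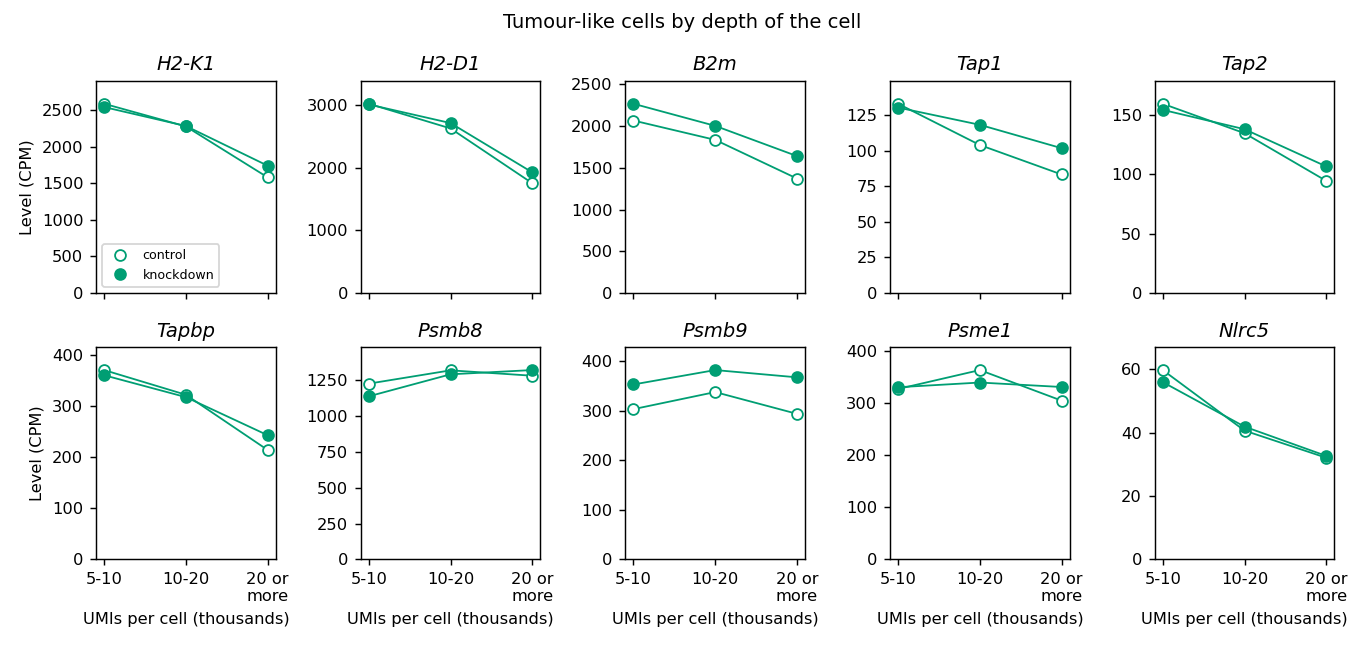
Level in CPM (linear axes from 0) of each gene in tumour-like cells, in bins of 5000 to 10000, 10000 to 20000 and at least 20000 UMIs per cell, with open points for the control and filled points for the knockdown library. H2-K1 falls from 2586 to 1580.4 CPM across the control bins, and B2m and Psmb9 are the genes with the filled point well above the open point in every bin.

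The share of cells with a UMI was compared after each tumour-like cell was thinned to 5000 UMIs. H2-K1 was then seen in 99.6% of control and 99.7% of knockdown cells, and H2-K1 and H2-D1 together were at 0 in 3 control and 3 knockdown cells (0.0602% and 0.0576%). The sum of the 2 heavy chains had a median of 20 UMIs per control cell (5th to 95th percentile 7.25 to 43) and 22 per knockdown cell (8 to 47). Tap1 was seen in 36.8% of control and 42.2% of knockdown cells, against 74.99% and 74.1% before thinning. Nlrc5 was seen in 17.4% and 18.5% of cells, against 45.2% and 42.3% before thinning. So the unthinned shares were higher in the deeper control library for both genes, and the thinned shares were higher in the knockdown library. No class here should lack class I RNA, so no background share from free RNA can be set beside these.

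In macrophages the median log2 ratio of the 10 genes was 0.14 beside 0.10 for all 10753 genes tested, and none was 1.2-fold higher or lower, where 28.2% of all genes tested were 1.2-fold higher and 7.87% lower. Among the 5798 genes with at least 1000 UMIs, 1142 were that much higher and 427 lower. H2-K1 stood at 2251 and 2493 CPM in the control and knockdown libraries and H2-D1 at 2896 and 2973 CPM. B2m stood at 1856 and 2021 CPM, a log2 ratio of 0.12 (0.10 to 0.15). The highest ratios were those of Nlrc5, with 59.1 and 69.6 CPM and a log2 ratio of 0.24 (0.09 to 0.39), and of Tap2, with 82.9 and 96.8 CPM and 0.22 (0.10 to 0.35). Tap1 was at 155 and 151 CPM, with a range from -0.14 to 0.06. TMM lowers every ratio in this class by 0.14, after which the members' median was -0.00 and H2-D1, B2m, Tap1, Psmb8 and Psme1 were below 0.

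Tumour RNA was higher in the knockdown macrophages. Hmga2 there was 14.9% of its tumour-like level in control and 40.4% in knockdown, or 29.4% and 40.6% with every cell weighted equally, and the 5 fibroblast markers, which tumour-like cells express, summed to 294 and 811 CPM. The 3 Cd3 genes summed to 34.3 and 48.3 CPM and the 2 haemoglobin genes to 12.8 and 47.1 CPM. The 6 macrophage markers were lower in the knockdown library, at 55013 and 45274 CPM, as were the 3 C1q genes, at 20051 and 16955 CPM. In cells of the macrophage class without a UMI of Hmga2 or Dcn, an alternative chosen after seeing the data, the members' median was 0.15 and again none was 1.2-fold higher. Single members moved more than the median: Tap1 turned from -0.04 to 0.09, H2-D1 went from 0.04 to 0.13, H2-K1 from 0.15 to 0.24, Psmb9 from 0.15 to 0.24, Psme1 from -0.00 to 0.12, and Tapbp from 0.20 to 0.09.

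In T cells Psmb9 was the member at least 1.2-fold higher in the knockdown library, where 16.7% of the 6002 genes tested were that much higher and 8.46% that much lower. It stood at 427 CPM (407 to 447) in control and 514 CPM (489 to 540) in knockdown T cells, a log2 ratio of 0.27 (0.13 to 0.41). The count was 0 under TMM, with every cell weighted equally, without cells in 2 classes and in T cells without a C1q UMI, and 4 with Scrublet's own doublet threshold. H2-K1 was at 2349 and 2600.3 CPM, H2-D1 at 2200.3 and 2432 CPM, and B2m at 1668 and 1939 CPM, each higher in the knockdown library. Tap1 was at 173 and 175 CPM and Psmb8 at 1284 and 1265 CPM, and both had a range across 0. The members' median was 0.15 (-0.01 to 0.28 as the median of the members' range limits) beside 0.05 for all genes tested, and it was 0.06 under TMM, 0.09 with every cell weighted equally and 0.08 with a gate of at least 1 Cd3 UMI. Macrophage RNA moved with the group: C1qa in T cells was 7.57% of its macrophage level in control and 12.1% in knockdown. Its part in the T cell ratios was not tested.

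Across classes the order of levels differed from gene to gene. Nlrc5 was 1.66 log2 units higher in T cells than in tumour-like cells of the control and 1.74 of the knockdown, and 0.71 and 0.83 higher in macrophages than in tumour-like cells. Tap1 was likewise lowest in tumour-like cells. Tapbp was highest in tumour-like cells in both libraries, and its T cell and macrophage intervals did not overlap the tumour-like one in either library. Tap2 was lowest in macrophages, and Psmb8 was lowest in macrophages with T cells and tumour-like cells within 0.03 log2 units of each other. For H2-D1, macrophages were highest in both libraries. These orders are of whole classes, and tumour-like cells were the deepest. In tumour-like cells of 5000 to 10000 UMIs, H2-D1 stood at 3022 and 3011 CPM, against 2896 and 2973 CPM in all macrophages. Nlrc5 stood there at 59.8 and 56.0 CPM, against 59.1 and 69.6 CPM, and Tap1 at 133 and 130 CPM, against 155 and 151 CPM. So the H2-D1 order was reversed there. The part of depth in the class orders was not tested. Thinned to 2000 UMIs, which left out 605 control and 984 knockdown macrophages and 231 T cells in each library, Nlrc5 was seen in 26.5% and 28.1% of T cells, 11.3% and 13.2% of macrophages and 6.82% and 7.96% of tumour-like cells. T cells of the knockdown library held 42.4% and those of the control library 50.6% of the tumour-like Hmga2 level, or 14.7% and 15.3% with every cell weighted equally, and 89.9% of T cells in each library had no Hmga2 UMI, so these classes were not free of each other's RNA.

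The immunoproteasome forms when Psmb8, Psmb9 and Psmb10 products take the places of the constitutive subunits encoded by Psmb5, Psmb6 and Psmb7. Psmb9 made up 48.2% (47.8 to 48.6, Clopper-Pearson) of the Psmb9 and Psmb6 UMIs of control tumour-like cells and 54.5% (54.1 to 54.9) in the knockdown library. The same share was 51.5% and 56.4% in macrophages and 57.6% and 64.6% in T cells, so it was higher in the knockdown library in all 3 classes, with intervals that do not overlap. Psmb6 itself was lower in the knockdown library in tumour-like cells, at 331 and 310.2 CPM, and in macrophages, at 368 and 336 CPM. In T cells it stood at 315 and 282 CPM, with a log2 ratio of -0.16 whose range crossed 0 (-0.33 to 0.02). The share is unaffected by the scaling of a library.

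The other pairs showed no such difference in tumour-like cells. Psmb8 made up 76.5% (76.3 to 76.7) and 76.9% (76.7 to 77.1) of its pair there, 80.9% and 80.9% in macrophages and 80.1% and 79.95% in T cells. Psmb10 made up 78.8% (78.4 to 79.1) and 78.6% (78.2 to 79.0) of its pair in tumour-like cells and 73.6% and 76.0% in macrophages, where the intervals did not overlap. In T cells it made up 76.8% (74.8 to 78.8) and 75.9% (73.4 to 78.2).

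**Figure D4:**
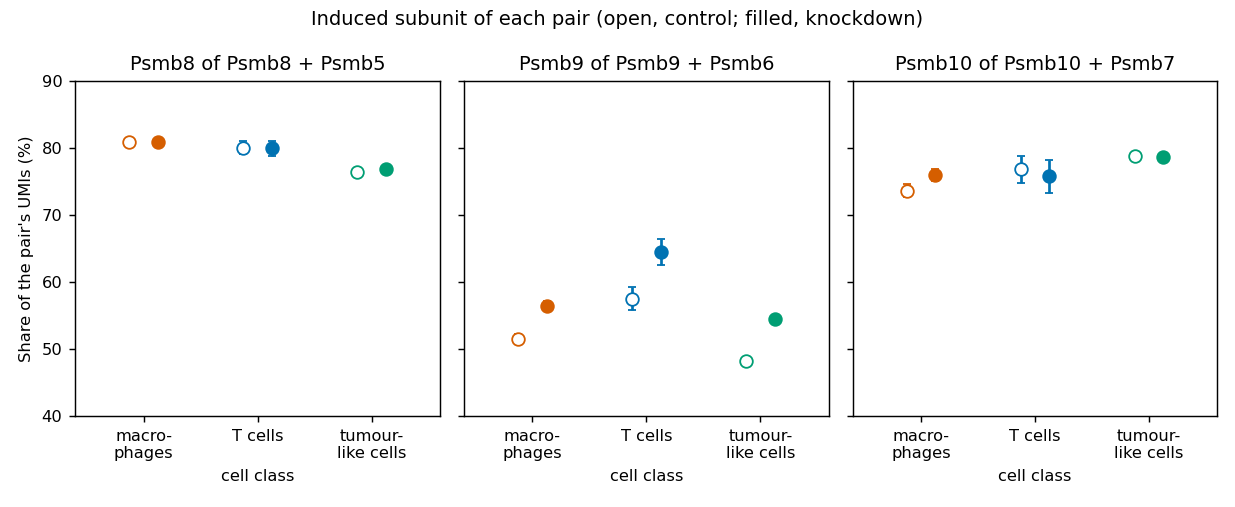
Share of each induced subunit in the UMIs of its pair, in percent on an axis from 40 to 90, by class, with exact 95% binomial intervals. Only the Psmb9 pair has the knockdown point clear of the control point in all 3 classes (48.2% and 54.5% in tumour-like cells), while the Psmb8 points lie close together.

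Tumour-like cells were also gated by 6 gene pairs or triplets, and cells passing none of these were the reference. The gates are ranges of UMIs per 10000 rather than cell types, and they can overlap. In the 968 control and 1187 knockdown cells of the fibroblast matrix gate (Col1a1, Col1a2 and Col3a1 at 30 or more per 10000), all 10 members were above the reference in both libraries, with medians of 0.50 and 0.42 log2 units. Of all genes with at least 100 UMIs in the gate or the reference, 65.2% and 59.0% were above it, with medians of 0.15 and 0.07. H2-D1 there stood at 2977 and 3443 CPM against 2010.0 and 2263 CPM in the reference. Tapbp stood at 408 and 413 CPM against 243 and 281 CPM. B2m stood at 2217 and 2499 CPM against 1481 and 1787 CPM. Psmb8 was the member closest to the reference, 0.04 log2 units above it in both libraries. These cells were shallower than the reference, with medians of 13815 and 11635 against 18333 and 14677 UMIs, and the part of depth was not tested.

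Cycling cells (Mki67 and Top2a) had lower heavy chain levels. H2-K1 stood at 1605 and 1780.5 CPM in 1177 control and 1383 knockdown cycling cells, against 1760.4 and 1969 CPM in the reference. Tap1 was the other way round, at 97.7 and 121 CPM in cycling cells against 83.6 and 101 CPM. Psmb9 was also above the reference, at 321 and 392 CPM against 286 and 350.4 CPM. The members' median was -0.13 in both libraries, beside 0.01 and 0.01 for all genes. The cycling cells were the deeper ones, with medians of 26215 and 19628 UMIs.

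The remaining gates held fewer cells. In the Cryab and Krt14 gate (184 control and 344 knockdown cells) H2-D1 was 0.41 and 0.27 log2 units above the reference and Psme1 0.27 and 0.34 below. In the Krt16 and Klk8 gate (150 and 22 cells) Psmb8 stood at 1785 CPM (1742 to 1828) in control and 1429 CPM (1310 to 1556) in knockdown cells. That log2 ratio of -0.32 (-0.48 to -0.16) was opposite to B2m in the same cells, at 1453 and 1900.2 CPM and 0.39 (0.24 to 0.53). The members' median in the Krt16 and Klk8 gate was 0.27 and 0.22 log2 units above the reference, beside 0.04 and -0.05 for all genes. The Csmd3 and Robo2 gate (53 and 74 cells) had a median of 0.53 above the reference in control cells, with 9 of 10 members above it, and 0.18 in knockdown cells, with 7 of 10. All genes had 62.1% and 60.2% above the reference there, with medians of 0.21 and 0.15, and 24 control and 39 knockdown cells of this gate were also in the fibroblast matrix gate. In these cells H2-K1 stood at 2571 and 2165 CPM and Psmb8 at 1499 and 1158 CPM, both lower in the knockdown library, with log2 ratios of -0.25 (-0.38 to -0.12) and -0.37 (-0.54 to -0.20). The Tnnt2 and Tafa5 gate (59 and 36 cells) had members' medians of -0.23 and -0.33 against the reference, beside -0.02 and -0.03 for all genes. The Cryab and Krt14 gate had -0.01 and -0.10, beside -0.12 and -0.09 for all genes.

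Counted over the 6 gates and the reference, B2m was higher in the knockdown library in 6 of 7 groups of cells, each with a range above 0. Tap1 and Psmb9 were higher in 6 of 7, with a range above 0 in 4. H2-K1 and H2-D1 were also higher in 6 of 7, with a range above 0 in 5 and below 0 in 1. Tap2 was higher in 6 of 7 too, with a range above 0 in 2. Psme1 and Nlrc5 were higher in 5 of 7 and Tapbp in 4. Psmb8 was higher in 3 of 7, and its range was above 0 in 1 and below 0 in 3. No share over all genes was taken for these counts, and the gates overlap. Weighting the gates by the control library's mix left the members' median at 0.17, chosen after seeing the data beside 0.18 without it.

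**Figure D5:**
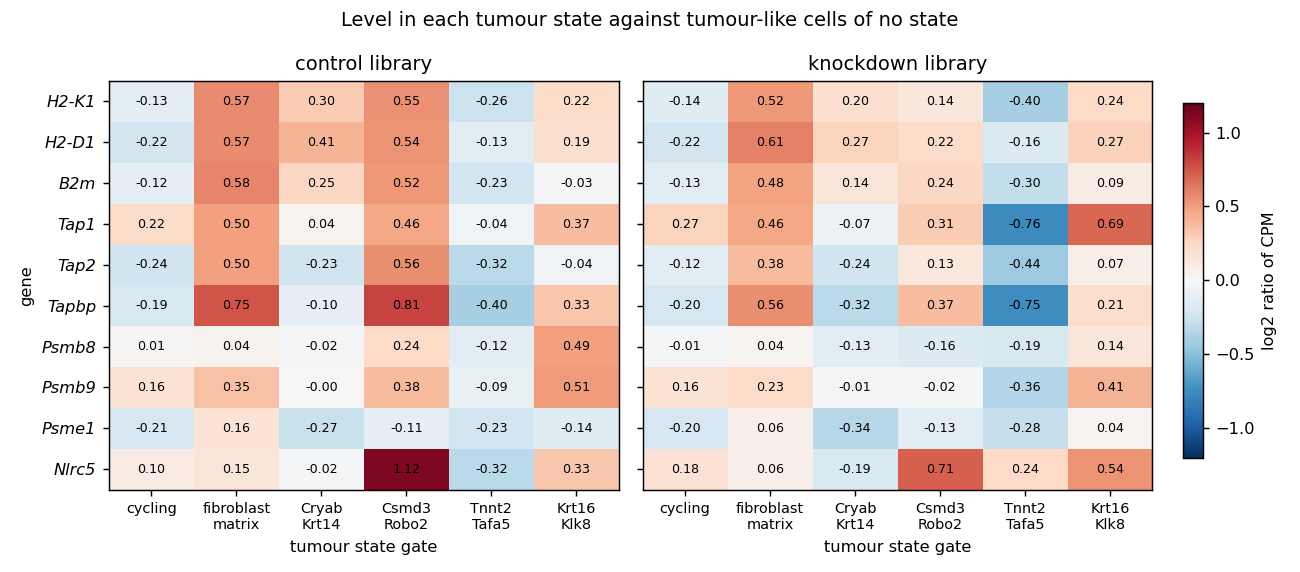
Log2 ratio of each gene's level in cells of a tumour gate to its level in tumour-like cells of no gate, for the control library (left) and the knockdown library (right), with the value in each cell of the grid. The fibroblast matrix column is above 0 for all 10 genes in both libraries (medians 0.50 and 0.42), and the Tnnt2 Tafa5 column is mostly below 0.

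Members were then set against a score of 8 interferon-stimulated genes that holds no member (Isg15, Ifit1, Ifit2, Ifit3, Rsad2, Oasl1, Cmpk2 and Usp18 per 10000), in 4 bins with edges shared by both libraries. Isg15 stood at 266 and 413 CPM in tumour-like cells, 466 and 741 CPM in macrophages and 366 and 561 CPM in T cells of the control and knockdown libraries, and all 8 genes had a ratio above 0 in each class, where 62.9%, 65.6% and 58.1% of all genes tested did. The range crossed 0 for Usp18 in macrophages (-0.03 to 0.32) and T cells (-0.25 to 0.67) and for Cmpk2 in T cells (-0.32 to 0.90). In tumour-like cells all 10 members were higher in the top than in the lowest bin in both libraries, with medians of 0.61 and 0.58 log2 units, where 55.9% and 49.2% of all genes with at least 100 UMIs in 1 of those bins were higher, with medians of 0.05 and -0.01. Tap1 had the largest such difference, 1.04 and 0.91, and Psmb8 had 0.38 and 0.45. B2m stood at 1221 CPM in the lowest and 1865 CPM in the top bin of the control library and at 1556 and 2083 CPM in those of the knockdown library. The lowest bin held 31.3% of control and 19.0% of knockdown cells, and the top bin 20.2% and 29.6%. The bins also differed in depth, from a median of 21679 UMIs in the lowest to 16871 in the top control bin.

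Compared within a bin, the members' median ratio between the libraries was 0.26 in the lowest bin and 0.04, 0.01 and 0.10 in the next 3. Control cells were deeper than knockdown cells in each bin, with medians of 21679 and 16056.5 UMIs in the lowest and 16871 and 13664 in the top. The part of depth in these ratios was not tested, and no ratio over all genes was taken within these bins. B2m remained higher in the knockdown library in each bin, with 0.35 (0.32 to 0.38), 0.18 (0.16 to 0.21), 0.12 (0.09 to 0.15) and 0.16 (0.13 to 0.19). Psmb9 was higher in each bin as well, with 0.31, 0.19, 0.10 and 0.17. Tapbp was at 0.34 (0.26 to 0.42) in the lowest bin and had a range across 0 in the others. Psmb8 was lower in the knockdown library in 3 of the 4 bins, by -0.07 (-0.10 to -0.03), -0.08 (-0.11 to -0.05) and -0.08 (-0.12 to -0.05). The part of the interferon response in the ratios over the whole class was not tested, and free RNA that both the score and the members read was not separated from it.

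In macrophages the difference between the top and the lowest bin was smaller, with medians of 0.31 and 0.39. All genes had medians of -0.09 and -0.05 there, with 37.7% and 44.6% above 0. Nlrc5 had the largest, 0.88 and 0.83, while H2-D1 had 0.07 and -0.01. Within the macrophage bins the members' median ratio between the libraries was 0.14, 0.08, -0.01 and 0.06 from the lowest to the top. In T cells the medians of top over lowest were 0.30 and 0.06, with Tapbp at 0.90 and 0.31. All genes had medians of -0.11 and 0.02 there, so the knockdown median of the members was near that of all genes. Within the T cell bins the members' median ratio between the libraries was 0.17, 0.14 and 0.26 in the first 3. It was -0.16 in the top bin (176 control and 190 knockdown cells), against 0.15 over all T cells. Tap1 was at -0.49 (-0.95 to -0.04) in that top bin. No ratio over all genes was taken within the macrophage and T cell bins. A shift of all genes there therefore cannot be told from a shift of the members. The lowest T cell bin held cells with no UMI of the 8 genes, so there the score depends on depth as well.

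Other genes of the pathway were taken from lists named in the methods, and their counts stand beside 11.4% of all genes at least 1.2-fold higher in tumour-like cells, 28.2% in macrophages and 16.7% in T cells. Among 13 other class I heavy chain genes, 2 of 9 tested were at least 1.2-fold higher in knockdown tumour-like cells, 5 of 9 in macrophages and 4 of 7 in T cells, with none 1.2-fold lower and medians of 0.18, 0.34 and 0.27. The 2 in tumour-like cells were H2-T22, at 305 and 387 CPM, and H2-T10, at 27.6 and 33.3 CPM. H2-Q7, which encodes Qa-2, was at 222 and 303 CPM in macrophages and 328 and 378 CPM in tumour-like cells. H2-T23, which encodes Qa-1, the ligand of the inhibitory receptor NKG2A, was at 38.8 and 43.9 CPM in tumour-like cells against 354 and 387 CPM in macrophages and 220.0 and 313 CPM in T cells. Reads of these near-identical genes may be split or lost in counting, so their levels are uncertain.

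Of 9 genes for peptide supply and loading, 2 were at least 1.2-fold higher in tumour-like cells, 1 in macrophages, a smaller share than that of all genes, and 3 in T cells. Pdia3, a thiol oxidoreductase of the loading complex, was at 272 and 338 CPM in tumour-like cells and the chaperone gene Hspa5 at 388 and 468 CPM. Psme2, the partner of Psme1 in PA28, was at 632 and 714 CPM. None of 14 constitutive proteasome genes was 1.2-fold higher or lower in any class, with medians of 0.02 in tumour-like cells, 0.03 in macrophages and -0.01 in T cells.

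Of 14 regulators, 6 of 13 tested were at least 1.2-fold higher in tumour-like cells, 4 of 14 in macrophages, about the share of all genes, and 3 of 11 in T cells. Irf7 was at 52.3 and 73.6 CPM in tumour-like cells, Stat2 at 47.5 and 62.5 CPM, and Irf9 at 25.9 and 32.7 CPM. These are transcription factors of the interferon response. Irf1, a factor that binds class I promoters, was at 193 and 229 CPM, a log2 ratio of 0.24. Rfxap, a part of the RFX complex that works with NLRC5, was at 38.0 and 37.7 CPM. None of the interferon receptor and kinase genes was 1.2-fold higher or lower in any class, with 7 tested in tumour-like cells and macrophages and 6 in T cells.

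The genes whose pattern was most like the members' mean were found over 18 points, the 3 classes and 6 tumour gates in both libraries, which share cells and depth. They were Chfr (Pearson r = 0.94), Gbp8 (0.93), AW112010 (0.93), A930005H10Rik (0.92) and Rrad (0.91). These values are a description only. Among the members the likeness to their own mean ran from 0.93 for H2-K1 to 0.27 for Psmb8. AW112010 stood at 1558 CPM in macrophages, 2152 CPM in T cells and 817 CPM in tumour-like cells of the control library.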

How the data were processed

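The deposited matrices of both libraries give UMI counts as whole numbers for every gene in every cell. Per the file headers, the authors' Cell Ranger was version 6.1.0, while the submitters' processing notes name 3.1.0. Which of them made the counts, and the build and annotation, are not given in the sources used here. The libraries held 11977 control and 12853 knockdown barcodes with 165824226 and 138402860 UMIs. Cells with fewer than 200 genes or more than 20% mitochondrial UMIs were left out, and doublets were removed by Scrublet score rank (scanpy 1.11.5) at 0.8% per 1000 cells, 1148 and 1322 cells. Kept were 10662 control and 11450 knockdown cells, of which 1048 and 1185 fell in no class. The Cd3 gate was read as raw UMIs.

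Counts were summed per class and library and divided by the class total (CPM). Intervals are exact Poisson or Clopper-Pearson at 95%. Genes with at least 100 UMIs in 1 library were tested for a 1.2-fold difference, with no p-value, and the procedure was tested on simulated data. Alternatives used TMM (edgeR 4.0.16), the median of ratios (DESeq2 1.42.0), other doublet calls, filters, gates, depth bins and equal weights. The genes named are the 10 members, genes of the pathway lists and the 5 genes most like the members' mean among genes with at least 1000 UMIs. The lists are other class I heavy chains, peptide supply and loading, the constitutive proteasome, regulators, and interferon receptors with their kinases. Members and lists were chosen with earlier results of these data known. The values of 1 regulator are not reported here.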

Additional observations from a re-analysis of the deposited data

How the results depend on the processing

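Over the 30 ratios of single members and 370 alternative values under 25 settings, 119 lay beyond the range of the reported value. The sign differed from that of the reported value in 45 of the 370, among them 7 of 11 for Tap1 in T cells. Among the 4 ratios of at least 1.2-fold, 1 value did so, Tap1 in tumour-like cells of 5000 to 10000 UMIs (-0.029). The members' median in macrophages (0.14) was -0.0040 under TMM, -0.0057 under the median of ratios and 0.17 without doublet removal. The number of members 1.2-fold higher in macrophages (0) was 1 with Scrublet's own threshold. In T cells (1) it was 4 with that threshold and 0 under TMM, the median of ratios, equal weighting of cells, without cells in 2 classes, with at least 1 or at least 3 Cd3 UMIs, without a C1q UMI, and without a UMI of Hmga2 or Dcn. In tumour-like cells the median (0.18) was 0.11 under TMM, 0.11 under the median of ratios, 0.13 with equal weighting, 0.12 in the 283 control and 390 knockdown cells without a UMI of Lyz2, C1q or Cd3, -0.027 at 5000 to 10000 UMIs and 0.040 at 10000 to 20000 UMIs, and the count (3) was 0 under each of these 6. With thresholds halved, the Cryab and Krt14 gate's median turned to 0.054 in both libraries, and with thresholds doubled the Tnnt2 and Tafa5 gate (5 and 1 cells) turned to 0.094 and 0.23. Without the filter on low counts, 14.6% of genes were 1.2-fold lower in macrophages, 32.6% higher and 18.9% lower in T cells, and 23.5% higher and 12.7% lower in tumour-like cells. The cause of these changes was not tested. No paired analysis was possible because each group has 1 library. Depth limits Nlrc5, Tap1 and Tap2 in T cells most, where the ranges cross 0.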
